A study of Homo sapiens with 4 samples.

Results

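The human ZNF genes of chromosome 19 are a large family of zinc finger transcription factor genes, packed side by side along the chromosome. They were chosen as the protein-coding genes on chromosome 19 whose symbol is ZNF followed by a number and at most 1 letter, a rule that used no expression value. It took 246 of the 58735 genes in the deposited tables, and 238 of the 246 carried the transcription factor family label zf-C2H2 in those tables. Their transcripts were counted by RNA sequencing of 769-P cells, a line from a human clear cell carcinoma of the kidney. Cells treated with doxycycline at 1 µg/ml for 4 days gave 2 libraries, and untreated cells gave the other 2. All 4 libraries came from 769-P cells labelled wild type that were stably transfected with an inducible short hairpin RNA (shRNA) against USP35, a deubiquitylating enzyme, and were kept under puromycin. The labels give no number of clones, do not say whether replicates were separate cultures, and call the treated cells sh2. P-values therefore rest on the spread between libraries that may be technical repeats. Cells lacking the hairpin but given doxycycline were not analysed here.

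A C2H2 zinc finger folds around a zinc ion held by a pair of cysteines and a pair of histidines, and a run of fingers reads a run of DNA bases. Most zinc finger genes of chromosome 19 also encode a KRAB domain, which binds the corepressor TRIM28 (also called KAP1). TRIM28 brings in the histone methyltransferase SETDB1, HP1 proteins and the NuRD complex, and the bound site, often a transposable element, is silenced. The genes arose by repeated tandem duplication, so that neighbours resemble each other in sequence.

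The promoters of 4 of the genes show what members of the family share and where they differ: ZNF791 and ZNF714, the genes with the lowest p among those higher and lower with doxycycline, and ZNF91 and ZNF274, whose roles are known. Each window runs 5′ to 3′ on the gene's strand from 250 bases before to 50 bases after the start in RefSeq on GRCh38.p14, at chr19:12610670-12610969 (plus strand) for ZNF791, chr19:21081953-21082252 (plus) for ZNF714, chr19:23395422-23395721 (minus) for ZNF91 and chr19:58182811-58183110 (plus) for ZNF274. Capitals mark matches to the ETS factor motif CCGGAAG on either strand.
ZNF791: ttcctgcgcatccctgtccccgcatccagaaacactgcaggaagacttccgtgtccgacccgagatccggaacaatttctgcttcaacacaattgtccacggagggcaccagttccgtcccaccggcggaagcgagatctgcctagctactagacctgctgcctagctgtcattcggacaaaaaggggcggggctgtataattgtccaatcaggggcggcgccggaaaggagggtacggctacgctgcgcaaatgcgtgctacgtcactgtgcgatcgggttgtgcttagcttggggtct
ZNF714: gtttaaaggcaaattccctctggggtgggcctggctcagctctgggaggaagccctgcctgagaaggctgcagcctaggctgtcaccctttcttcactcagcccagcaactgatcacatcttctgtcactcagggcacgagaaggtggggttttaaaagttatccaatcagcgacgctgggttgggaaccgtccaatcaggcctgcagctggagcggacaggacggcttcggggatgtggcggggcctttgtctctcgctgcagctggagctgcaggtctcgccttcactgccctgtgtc
ZNF91: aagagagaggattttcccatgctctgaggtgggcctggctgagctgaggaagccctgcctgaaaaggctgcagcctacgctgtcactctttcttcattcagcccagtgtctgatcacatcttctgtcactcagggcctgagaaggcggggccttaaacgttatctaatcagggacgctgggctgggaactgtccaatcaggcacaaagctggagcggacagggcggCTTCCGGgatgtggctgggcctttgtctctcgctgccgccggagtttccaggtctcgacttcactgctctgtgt
ZNF274: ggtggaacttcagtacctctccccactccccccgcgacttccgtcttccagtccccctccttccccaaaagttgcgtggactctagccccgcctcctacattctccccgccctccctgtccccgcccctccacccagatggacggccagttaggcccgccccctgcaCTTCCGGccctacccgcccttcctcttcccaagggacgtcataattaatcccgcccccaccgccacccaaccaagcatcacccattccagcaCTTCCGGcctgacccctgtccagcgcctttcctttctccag
The ZNF714 and ZNF91 windows were alike, with 253 identical bases in 305 aligned columns (83.0%), and both genes lie in the same pericentromeric array. The other pairs of these windows were 45.3% to 48.8% identical. The ETS motif occurred 2 times in the ZNF274 window and 1 time in the ZNF91 window, and neither the ZNF791 nor the ZNF714 window holds those letters.

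A promoter window was found for 215 of the 246 genes. The ETS motif was in 98 of them (45.6%), against 14.4% of the windows of all 14896 protein-coding genes in the same table. It was in 89 of 177 windows of genes with a KRAB domain pattern (50.3%) and in 9 of 38 windows of genes without one (23.7%). The E2F motifs TTTCCCGC, TTTGGCGC and TTTCGCGC, sought on both strands, were in 16 windows (7.44%, against 3.73% of all). Single strings for the NRF1 and the YY1 motif, also sought on both strands, were in 5 windows (2.33%, against 1.74%) for NRF1 and in 2 for YY1 (0.930%, against 1.40%). The windows held a median of 20 CpG dinucleotides, against 22 in all windows. A match is a description of letters in a window and not of binding. Genes with and without an ETS match had similar medians of the difference between doxycycline and untreated cells, -0.04 and 0.01 on the log2(FPKM + 1) scale, over the 51 and 53 genes kept for testing.

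Coding sequences in GENCODE release 29 placed a KRAB pattern in 205 of the 246 genes (83.3%). The pattern can miss diverged boxes and depends on the transcript read, so that the other 41 are genes in which it was not found. The genes encoded a median of 12 fingers, with the most, 36, in ZNF208, and a median of 591 residues. Split where neighbouring starts lay more than 1000000 bases apart, they formed 16 clusters, and the 6 largest held 210 genes. In 49 genes more than 10% of the 50-base words of the transcripts recurred in another gene, and in 8 genes more than 50% did, and reads of such copies can be split between genes. In 131 of the 246, the gene's span, introns included, overlapped that of a gene on the opposite strand. The strandedness of the counting is not given in the sources used here. Where exons of such pairs overlap, their reads therefore cannot be told apart, and overlap of exons was not examined. Overlaps named below are also of gene spans.

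Depth was 17481827 and 18764546 reads in doxycycline replicates 1 and 2, and 16319640 and 17244546 reads in untreated replicates 1 and 2, as recovered from the deposited values. Levels are in FPKM, fragments per kilobase of gene, scaled to a size for each library that was not exactly its recovered read total. USP35 was at 2.11 and 2.54 FPKM with doxycycline and at 3.31 and 4.19 FPKM in untreated cells. This ratio of 0.62 did not pass the test across genes (limma adjusted p = 0.256). Of 9 renal clear cell carcinoma markers, 6 were at 1 FPKM or more in every library, PAX8 among them, while CA9 and NDUFA4L2 were at 0.09 FPKM or less. The doxycycline libraries parted in VEGFA, at 20.4 and 5.23 FPKM (6.66 and 5.18 FPKM in untreated cells). They also parted in MME, at 0.326 and 4.05 FPKM (0.334 and 0.400 FPKM in untreated cells). Marker lists of endothelial cells and leukocytes, with 4 genes each, summed to at most 0.0051 and 0.068 FPKM in any library, and fibroblast markers summed to 0.225 and 0.193 FPKM with doxycycline and 0.804 and 0.717 FPKM in untreated cells, and their part in the results was not tested. In mitochondrial share doxycycline replicate 2 stood apart from the other libraries, with 14.6% of its reads on mitochondrial genes. The share was 7.44% in doxycycline replicate 1 and 8.21% and 8.50% in untreated replicates. Its median for GC-rich genes, those with a transcript GC content of at least 55%, was below that of doxycycline replicate 1.

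The chromosome 19 ZNF genes were transcribed at low levels in both groups. Median levels were 0.832 and 0.986 FPKM in doxycycline replicates 1 and 2, and 0.878 and 0.974 FPKM in untreated replicates 1 and 2. Low medians were not particular to these genes. Over the 4 libraries the median of all protein-coding genes ran from 1.07 to 1.14 FPKM. That of the chromosome's other protein-coding genes ran from 0.347 to 0.524 FPKM. Averaged over the 4 libraries, 52 genes were under 0.1 FPKM, 24 between 0.1 and 0.3, 55 between 0.3 and 1, 102 between 1 and 5, and 13 at 5 FPKM or more. Of the 246, 17 were listed at 0 in every library. For a gene of 2 kb, 3 reads, the limit that a count of 0 allows, came to 0.0798 and 0.0819 FPKM with doxycycline and 0.0946 and 0.0861 FPKM in untreated cells, counting error alone considered. Together the 246 genes took 0.204% and 0.196% of the reads with doxycycline and 0.192% and 0.200% in untreated cells (exact two-sided permutation p = 0.667, where 0.33 is the smallest that 2 against 2 libraries can give). In bulk RNA, fewer cells that transcribe a gene and less of its RNA per cell cannot be told apart.

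**Figure D1:**
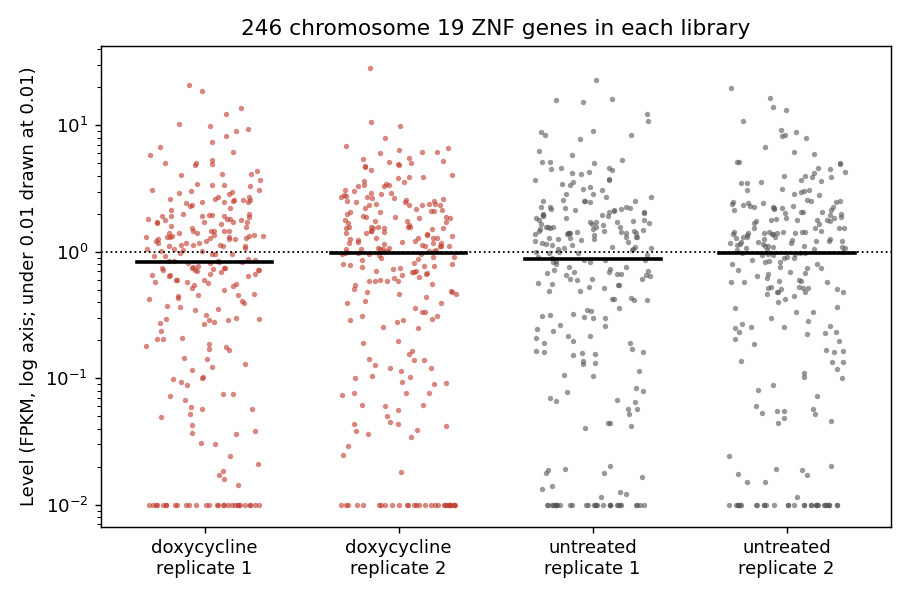
Level of each of the 246 chromosome 19 ZNF genes (FPKM, log axis, values under 0.01 drawn at 0.01) in each library, with 1 point per gene, a black bar at the library's median and a dotted line at 1 FPKM. The spread and the median, 0.832 and 0.986 FPKM with doxycycline and 0.878 and 0.974 FPKM in untreated cells, were similar in the 4 libraries.

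The shares of genes detected at 1 FPKM and at 0.3 FPKM overlapped between the groups. At 1 FPKM or more, 111 (45.1%) and 121 (49.2%) of the 246 were detected with doxycycline, and 116 (47.2%) and 119 (48.4%) in untreated cells. The mean difference of -1.5 genes was smaller than the gap between the 2 doxycycline libraries (exact two-sided permutation p = 1). At 0.3 FPKM, 169 and 174 genes were detected with doxycycline and 169 and 171 in untreated cells. At 10 reads or more, 192 and 194 were detected with doxycycline and 186 and 190 in untreated cells. That read limit is not adjusted for depth, and both doxycycline libraries had more reads than both untreated ones. In all 4 libraries 98 genes reached 1 FPKM, and in none of them 107. Of the 263 protein-coding ZNF genes on other chromosomes, 67.7% to 71.1% were at 1 FPKM or more. The share was 50.5% to 51.0% of all protein-coding genes and 44.2% to 45.9% of the chromosome's other protein-coding genes. These comparisons between genes are given without a test. The small mean difference changed sign with the limit, and without doxycycline replicate 1 it was 3.5 genes and without doxycycline replicate 2 -6.5 genes.

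A few genes crossed 1 FPKM with the groups. ZNF222, ZNF44, ZNF506 and ZNF554 reached it in both doxycycline libraries and in neither untreated library, by small margins: ZNF44 was at 1.13 and 1.07 FPKM with doxycycline and 0.853 and 0.796 FPKM in untreated cells. In the other direction, 9 genes reached it in both untreated libraries and in neither doxycycline library: ZNF85, ZNF100, ZNF132, ZNF430, ZNF468, ZNF530, ZNF701, ZNF714 and ZNF765. The 4 and 9 genes are 1.63% and 3.66% of the 246, beside 0.677% and 0.627% of all protein-coding genes, which were not matched to the members for how many lie near 1 FPKM. ZNF530 was at 0.435 and 0.468 FPKM with doxycycline and 1.57 and 1.22 FPKM in untreated cells. ZNF100 was at 0.652 and 0.619 FPKM with doxycycline and 1.47 and 1.10 FPKM in untreated cells. Both genes were named after their values were seen, and both had a mean under the 1 FPKM needed for the test. Just inside that limit, ZNF222 was at 1.04 and 1.28 FPKM with doxycycline and 0.755 and 0.946 FPKM in untreated cells. ZNF506, also inside it, was at 1.08 and 1.11 FPKM with doxycycline and 0.936 and 0.942 FPKM in untreated cells. Both genes lay slightly higher with doxycycline. Just outside the limit with ZNF44, ZNF613 was at 0.869 and 0.822 FPKM with doxycycline and 0.997 and 1.18 FPKM in untreated cells.

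The test across genes was limma-trend on log2(FPKM + 1), with Benjamini-Hochberg adjustment over all 12029 genes that averaged 1 FPKM or more. On this scale a change in a gene of low level looks smaller than it is. Of the 246 genes, 115 passed that filter (46.7%). Of these 115, 13 averaged 5 FPKM or more, against 6932 of the 12029, so that shares set side by side below are not matched for level. The differences of the 115 were small on this scale and evenly split, with 58 higher and 57 lower with doxycycline. The median difference was 0.004 (quartiles -0.23 and 0.15, range -0.82 to 0.49), beside -0.03 over all genes tested. None passed at an adjusted p under 0.05, as 0.0% of all genes did, and the lowest adjusted p was 0.139 (ZNF714). At an unadjusted p under 0.05, 1 gene was higher, ZNF791 (0.870% of 115, against 6.47% of all genes tested), and 6 were lower, ZNF714, ZNF580, ZNF180, ZNF551, ZNF628 and ZNF761 (5.22%, against 11.9% of all genes). Both doxycycline libraries lay above both untreated libraries in 28 genes (24.3%, against 24.3% of all genes tested) and below them in 30 (26.1%, against 28.9%). With limma-voom on the recovered reads, 0 members passed as well, when 1.01% of all genes did. Without doxycycline replicate 1, 15 members passed (2 higher and 13 lower, 9 of the lower ones GC-rich), when 32.8% of all genes did, and without doxycycline replicate 2 only ZNF714 passed, when 13.3% of all genes did. In those fits the lone doxycycline library is assumed to vary like the untreated ones. Groups were apart in 58 members in the full data (50.4%, against 53.2% of all genes). With 1 library against 2, groups part more often by construction: 102 members were apart without doxycycline replicate 1 (88.7%, against 86.5% of all genes) and 94 without doxycycline replicate 2 (81.7%, against 79.1%).

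Among the 8 named genes higher with doxycycline, ratios of the group means ran from 1.31 (ZNF83) to 1.56 (ZNF441). ZNF791 (ENSG00000173875, GRCh38 chromosome 19, 12610918 to 12633840, plus strand) encodes a KRAB pattern and 17 fingers. It was at 5.04 and 6.17 FPKM with doxycycline and 3.67 and 3.68 FPKM in untreated cells, so that the groups did not overlap. The means were 5.61 ± 0.80 FPKM with doxycycline and 3.68 ± 0.0071 FPKM in untreated cells (SD, n = 2 each), a log2 difference of 0.49 (SE 0.18; limma adjusted p = 0.243). ZNF490 overlaps it on the other strand. ZNF441, also a KRAB gene with 14 fingers, was at 1.98 and 2.67 FPKM with doxycycline and 1.31 and 1.67 FPKM in untreated cells. ZNF91 (ENSG00000167232, chromosome 19, 23304991 to 23395560, minus strand), a repressor of SVA elements in human cells with 31 fingers, was at 1.92 and 2.53 FPKM with doxycycline and 1.42 and 1.56 FPKM in untreated cells. Its log2 difference was 0.37 (SE 0.21; limma adjusted p = 0.392), and its values rested on 375 and 482 reads with doxycycline and 234 and 282 reads in untreated cells.

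The other 5 named genes on the higher side also had both doxycycline libraries above both untreated ones. ZNF548 was at 2.24 and 2.38 FPKM with doxycycline and 1.67 and 1.44 FPKM in untreated cells. ZNF558 was at 2.98 and 2.92 FPKM with doxycycline and 2.05 and 2.18 FPKM in untreated cells. ZNF83 was at 4.88 and 4.96 FPKM with doxycycline and 3.57 and 3.94 FPKM in untreated cells. In these 3 genes the 2 doxycycline libraries lay close together. ZNF561 was at 4.10 and 5.40 FPKM with doxycycline and 3.46 and 3.64 FPKM in untreated cells. ZNF837, GC-rich and without a KRAB pattern, was at 3.31 and 2.39 FPKM with doxycycline and 1.49 and 2.27 FPKM in untreated cells. Its lowest doxycycline value stood next to its highest untreated value. Adjusted p-values of these 5 genes, from limma, were between 0.353 and 0.409.

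ZNF714 was the gene with the lowest p. It (ENSG00000160352, chromosome 19, 21082159 to 21125270, plus strand) was at 0.841 and 0.958 FPKM with doxycycline and 2.17 and 2.44 FPKM in untreated cells, a ratio of 0.39. The means were 0.899 ± 0.083 FPKM with doxycycline and 2.31 ± 0.20 FPKM in untreated cells (SD, n = 2 each). The log2 difference was -0.80 (SE 0.20; limma adjusted p = 0.139), on 127 and 141 reads with doxycycline and 276 and 342 reads in untreated cells. Further along the same array, ZNF738, with a KRAB pattern and no finger found in its coding sequence, was at 2.57 and 1.55 FPKM with doxycycline and 3.68 and 3.07 FPKM in untreated cells. ZNF91, in that array too, was on the other side, with both doxycycline libraries above both untreated ones.

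ZNF180 (chromosome 19, 44474428 to 44500524, minus strand), with 12 fingers, was at 1.40 and 1.20 FPKM with doxycycline and 2.52 and 2.29 FPKM in untreated cells. ZNF551 was at 1.80 and 1.77 FPKM with doxycycline and 3.15 and 2.83 FPKM in untreated cells. ZNF761 was at 3.36 and 3.60 FPKM with doxycycline and 5.01 and 5.13 FPKM in untreated cells. In these 3 genes, as in ZNF714, the doxycycline libraries were close to each other and both well below the untreated ones. Their log2 differences were -0.57, -0.52 and -0.44, with limma adjusted p-values of 0.221, 0.231 and 0.256. ZNF551 overlaps ZNF154 on the other strand, and 8.87% of the 50-base words of ZNF761 recur in other genes.

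**Figure D2:**
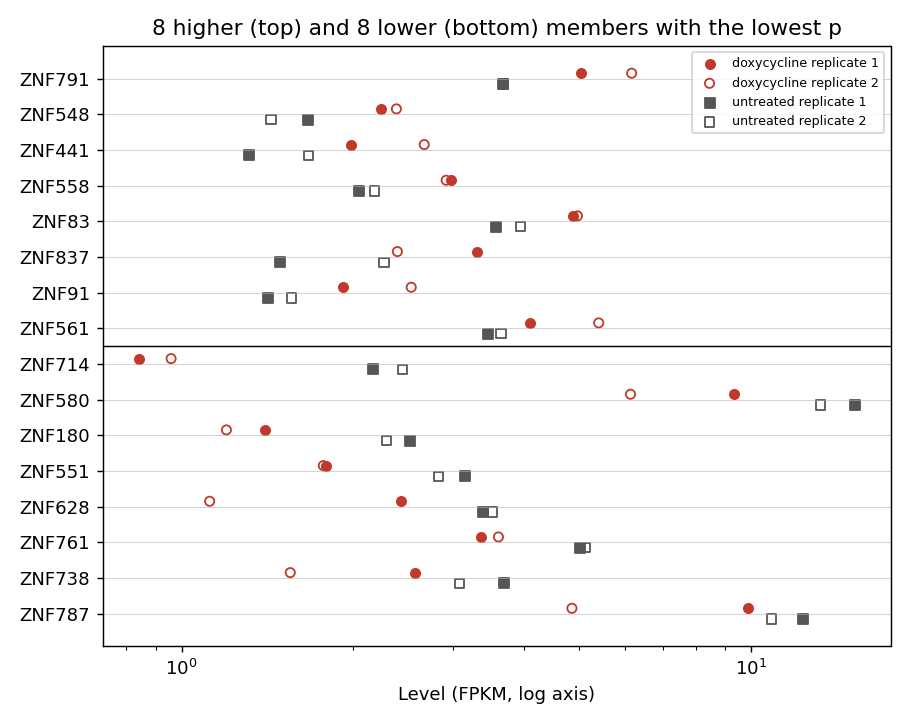
Level (FPKM, log axis) of the 8 genes higher (above the line) and the 8 lower (below it) with doxycycline that had the lowest p, with filled symbols for replicate 1, open symbols for replicate 2, circles for doxycycline and squares for untreated. ZNF714 lies at 0.841 and 0.958 FPKM with doxycycline and 2.17 and 2.44 FPKM in untreated cells, and in ZNF628 and ZNF787 the 2 doxycycline circles lie far apart.

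ZNF580, ZNF628 and ZNF787, the other named lower genes, were GC-rich, had no KRAB pattern and differed between the 2 doxycycline libraries. ZNF580 was at 9.33 and 6.15 FPKM with doxycycline and 15.2 and 13.3 FPKM in untreated cells, a log2 difference of -0.82 (SE 0.24; limma adjusted p = 0.172). ZNF581 overlaps it on the same strand and was at 12.4 and 7.90 FPKM with doxycycline and 10.9 and 9.23 FPKM in untreated cells, and how reads of the pair were divided is not known. The groups lay apart in ZNF580 and overlapped in ZNF581. ZNF628 was at 2.43 and 1.12 FPKM with doxycycline and 3.39 and 3.52 FPKM in untreated cells. ZNF787 was at 9.88 and 4.85 FPKM with doxycycline and 12.3 and 10.9 FPKM in untreated cells. In ZNF628 and ZNF787 doxycycline replicate 2 was far below replicate 1, which stood closer to the untreated libraries. Without doxycycline replicate 2 none of these 3 genes passed the test. Wide gaps between the doxycycline libraries were also seen in 3 other GC-rich genes. ZNF358 was at 18.6 and 9.87 FPKM with doxycycline and 16.2 and 16.5 FPKM in untreated cells. ZNF428 was at 13.6 and 6.39 FPKM with doxycycline and 15.9 and 13.9 FPKM in untreated cells. ZNF414 was at 5.07 and 2.06 FPKM with doxycycline and 5.30 and 4.58 FPKM in untreated cells. ZNF146, a gene of zinc fingers with no other known domain and the highest level of the 246, ran the other way, at 20.7 and 28.6 FPKM with doxycycline and 23.1 and 19.8 FPKM in untreated cells, with overlapping groups.

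These genes were part of a split by KRAB pattern and base composition. Of the 87 tested genes with a KRAB pattern, 50 were higher and 37 lower with doxycycline, with a median difference of 0.02, and 24 lay above (27.6%) and 20 below (23.0%) in both libraries, near the 24.3% and 28.9% of all genes. Of the 28 without the pattern, 8 were higher and 20 lower, with a median of -0.20, and 4 lay above (14.3%) and 10 below (35.7%). ZNF714, ZNF180 and ZNF561 are among these 28. As the search can miss diverged boxes, the 28 are not known to lack the domain. Against the untreated mean, the median of these 28 genes was -0.03 in doxycycline replicate 1 and -0.39 in doxycycline replicate 2. Transcript GC content was at least 55% in 25 of the 246 genes, 23 of them without a KRAB pattern. Of the 18 such genes tested, 17 were lower with doxycycline and 1, ZNF837, was higher, and their median was -0.26, or -0.02 in replicate 1 and -0.49 in replicate 2. All 3276 tested genes with such GC content had medians of -0.29, -0.08 and -0.49 in the same order. After correction for gene length and GC content, chosen after seeing the data, the median was 0.04 in the GC-rich members, 0.04 in those without a KRAB pattern and -0.02 in those with it.

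Across the 115 tested genes, which share the 4 libraries, the difference from the untreated mean correlated with GC content at r = 0.08 in doxycycline replicate 1 and r = -0.62 in replicate 2, and over all tested genes at -0.04 and -0.47. The 2 doxycycline libraries differed by 0.5 or more on the log2(FPKM + 1) scale in 18 of the 115 genes (15.7%), 14 of them without a KRAB pattern, and the 2 untreated libraries in 1 (0.870%). Over all genes tested the shares were higher, 29.1% between the doxycycline libraries and 5.83% between the untreated ones. The sets were not matched for level, and gaps at low levels look smaller on this scale. The part of library quality in the lower values of GC-rich members was not tested.

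**Figure D3:**
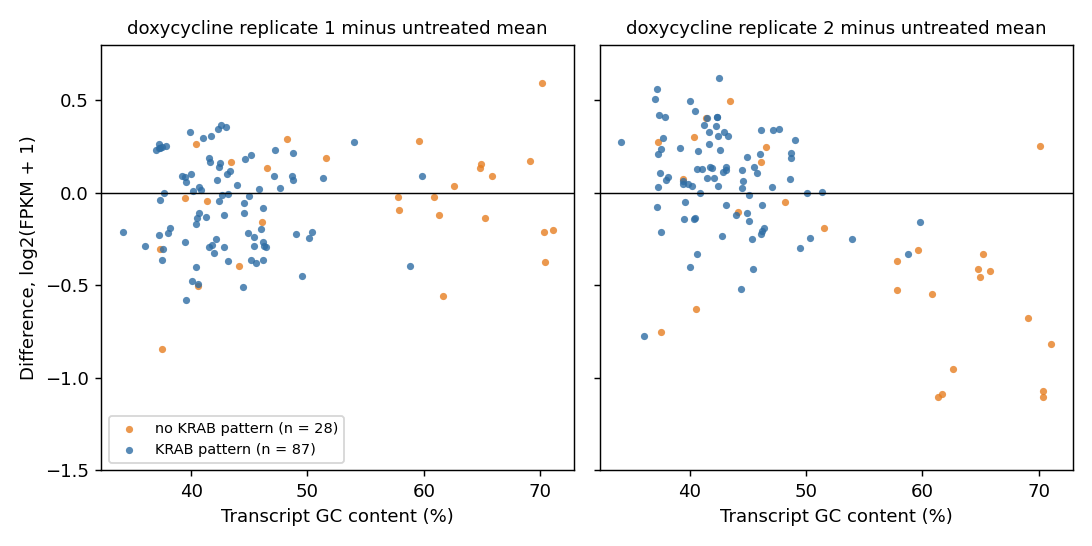
Difference of doxycycline replicate 1 (left) and replicate 2 (right) from the untreated mean on the log2(FPKM + 1) scale, against transcript GC content in percent, for 115 chromosome 19 ZNF genes with (blue) and without (orange) a KRAB pattern. Replicate 1 shows little slope (r = 0.08), and in replicate 2 the GC-rich genes, most without a KRAB pattern, lie low (r = -0.62).

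Along the chromosome, higher and lower genes occurred together in every cluster with at least 7 tested genes. The cluster nearest the end of the long arm (55476332 to 58481230) held 59 genes, the most of any, and 39 were tested, with 15 higher, 24 lower and a median of -0.07. It held 12 of the 18 tested GC-rich members, ZNF580, ZNF628 and ZNF787 among them. The cluster at 11483427 to 12640098, with ZNF791 and ZNF441, had 25 genes, of which 9 were tested, 6 higher and 3 lower, with a median of 0.12. The pericentromeric cluster at 19668796 to 24129961, with ZNF91, ZNF714 and ZNF738, had 37 genes, of which 12 were tested, 7 higher and 5 lower, with a median of 0.07. The cluster at 51571298 to 53580269, with ZNF83 and ZNF761, had 39 genes, of which 15 were tested, 7 higher and 8 lower, with a median of -0.11. Among clusters of at least 15 genes, the share that reached the test ran from 7 of 26 at 36182060 to 37817300, the cluster of ZNF146, to 10 of 15 at 7069444 to 9793180, the cluster of ZNF558 and ZNF561.

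**Figure D4:**
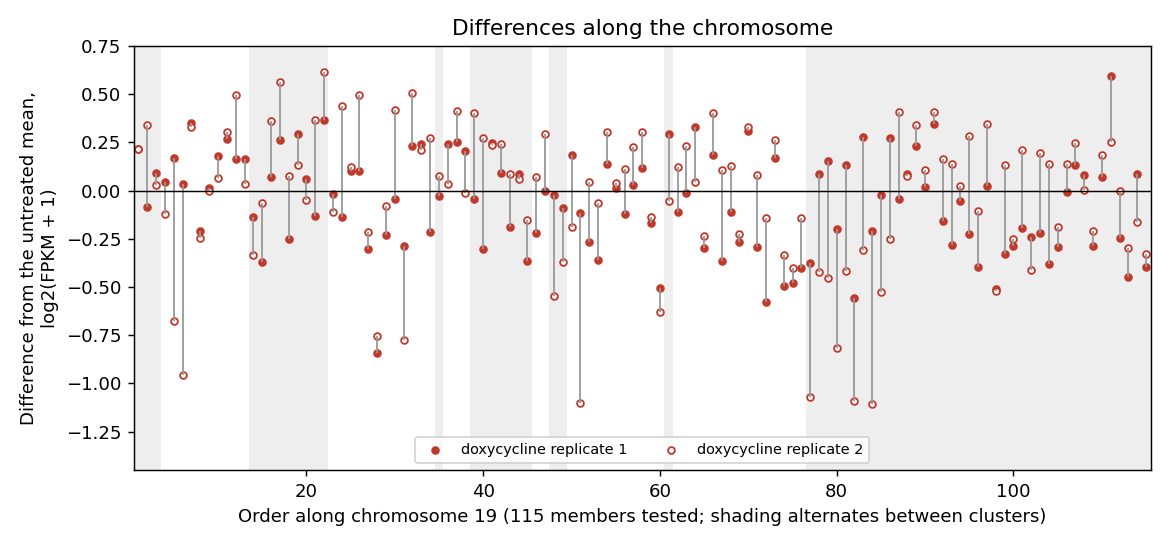
Difference of each doxycycline library from the untreated mean on the log2(FPKM + 1) scale for the 115 tested genes in their order along chromosome 19, with filled points for replicate 1, open points for replicate 2, a grey line joining the 2 and shading that alternates between clusters. Higher and lower genes lie side by side, and the cluster at the right end, with 15 genes higher and 24 lower, holds 12 of the 18 tested GC-rich members.

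The chromosome's other protein-coding genes had a lower median difference than its ZNF genes. Of 1226 such genes 555 were tested, with a median of -0.37, and both doxycycline libraries were above both untreated ones in 44 (7.93%) and below in 286 (51.5%). Their median GC content was 59.4%, against 42.2% in the 246 ZNF members. Protein-coding ZNF genes on other chromosomes, of which 187 of 263 were tested, had a median of 0.03, with 58 above (31.0%) and 36 below (19.3%) in both libraries, beside 24.3% and 28.9% of all genes. These are counts side by side, and the difference between the sets was not tested.

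Apart from ZNF91, the members with a known role that were tested had overlapping groups, and most others were low in 769-P cells. ZNF274, which guides SETDB1 to the ends of other zinc finger genes, had the highest level of them, at 4.12 and 3.85 FPKM with doxycycline and 3.74 and 3.94 FPKM in untreated cells, with overlapping groups and a log2 difference of 0.04 (SE 0.17; limma adjusted p = 0.917). ZNF350 (ZBRK1), a repressor that works with BRCA1, was at 1.01 and 1.37 FPKM with doxycycline and 0.972 and 1.08 FPKM in untreated cells. ZNF224, a repressor of the aldolase A gene, was at 1.26 and 1.30 FPKM with doxycycline and 1.10 and 1.39 FPKM in untreated cells. ZNF175, known as a repressor of HIV-1 transcription in macrophages, was at 1.18 and 1.56 FPKM with doxycycline and 1.28 and 1.44 FPKM in untreated cells. These groups overlapped as well. ZNF420 (APAK), a negative regulator of p53, was under the filter at 0.740 and 1.06 FPKM with doxycycline and 0.642 and 0.856 FPKM in untreated cells.

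Several members described as silenced by promoter methylation in cancers were near the detection limit in both groups. ZNF671 had 5 and 4 reads with doxycycline and 1 and 3 reads in untreated cells, ZNF154 had 11 and 11 reads with doxycycline and 4 and 10 in untreated cells, and ZNF582 had 1 and 0 reads with doxycycline and 1 and 1 in untreated cells. So few reads do not allow a difference to be read. ZNF382 was at 0.14 and 0.33 FPKM with doxycycline and 0.162 and 0.228 FPKM in untreated cells. ZNF331 was at 0.179 and 0.061 FPKM with doxycycline and 0.198 and 0.187 FPKM in untreated cells. In ZNF382 the groups overlapped. In ZNF331 both doxycycline libraries were below both untreated ones in FPKM, on 30 and 10 reads with doxycycline and 28 and 29 reads in untreated cells. ZNF649, a KRAB gene, was at 0.171 and 0.438 FPKM with doxycycline and 0.318 and 0.303 FPKM in untreated cells. ZNF93, a repressor of LINE-1 elements, had 6 and 4 reads with doxycycline and 7 and 10 in untreated cells. Both doxycycline libraries of ZNF93 were below both untreated ones, but on few reads, and the gene was under the filter and not tested.

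The 28 listed genes, of KRAB corepressors, wider heterochromatin and DNA methylation, were mostly lower with doxycycline, though none passed the test. Over all genes tested the median difference was -0.03. In the ZNF members, at lower levels where changes look smaller on this scale, it was 0.004. All 28 on the list were tested, and 7 were higher and 21 lower with doxycycline, with a median of -0.27. The lowest limma adjusted p was 0.0573, and at an unadjusted p under 0.05 0 were higher (6.47% of all genes were) and 10 were lower (35.7%, against 11.9% of all genes): TRIM28, CBX1, CHD3, HDAC1, EHMT2, SUV39H1, SUV39H2, DNMT1, DNMT3B and UHRF1. Both doxycycline libraries were above both untreated ones in 5 genes (17.9%, against 24.3% of all genes) and below in 15 (53.6%, against 28.9%). The 5 were SETDB1 and, named after their values were seen, HDAC2, SMARCAD1, MPHOSPH8 and MORC2. The list was chosen with earlier results of these data known, so that its shares are not independent of that choice. Without doxycycline replicate 1, 10 of the 28 (35.7%) passed at an adjusted p under 0.05, close to the 32.8% of all genes, and without doxycycline replicate 2, 7 (25%) did, beside 13.3% of all genes. With the fit limited to protein-coding genes, limited to means of at least 5 FPKM, corrected for length and GC content, or made with limma-voom on median-of-ratios sizes, 2 genes of the list (of 28 tested, or 23 at 5 FPKM) and 0 ZNF members passed each time, when 2.37%, 3.77%, 2.5% and 1.01% of all genes did. TRIM28 (chromosome 19, 58544091 to 58550722, plus strand), the scaffold that KRAB domains bind, was at 126 and 78.7 FPKM with doxycycline and 206 and 176 FPKM in untreated cells, a log2 difference of -0.93 (SE 0.30; limma adjusted p = 0.202). Its level per length was far above that of any ZNF member, and its GC content was 63.7%. Against the untreated mean TRIM28 was at -0.59 in doxycycline replicate 1 and -1.26 in replicate 2. The medians of all tested GC-rich genes were -0.08 and -0.49, and the part of GC content was not tested. SETDB1, the H3K9 methyltransferase of the complex, was on the other side, at 5.21 and 5.03 FPKM with doxycycline and 3.69 and 4.43 FPKM in untreated cells (limma adjusted p = 0.439).

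The HP1 gene CBX1 was at 20.6 and 24.9 FPKM with doxycycline and 38.6 and 33.7 FPKM in untreated cells. The NuRD ATPase gene CHD3 was at 15.9 and 17.8 FPKM with doxycycline and 26.7 and 30.6 FPKM in untreated cells. HDAC1, a deacetylase gene, was at 39.9 and 33.9 FPKM with doxycycline and 58.0 and 52.3 FPKM in untreated cells. All 3 had both doxycycline libraries below both untreated ones. HDAC2, the other deacetylase gene listed, lay the other way, at 10.60 and 13.6 FPKM with doxycycline and 10.55 and 9.44 FPKM in untreated cells. Of the H3K9 methyltransferase genes, EHMT2 was at 7.92 and 6.42 FPKM with doxycycline and 10.3 and 11.6 FPKM in untreated cells. SUV39H1 was at 3.30 and 1.91 FPKM with doxycycline and 5.93 and 5.32 FPKM in untreated cells, and SUV39H2 at 4.66 and 4.72 FPKM with doxycycline and 8.36 and 6.22 FPKM in untreated cells. Groups did not overlap in these either. UHRF1, which brings DNMT1 to replicating DNA, was at 4.25 and 2.75 FPKM with doxycycline and 22.2 and 20.03 FPKM in untreated cells, a ratio of 0.166 and a log2 difference of -2.32 (SE 0.23; limma adjusted p = 0.0573). DNMT1, the maintenance DNA methyltransferase, was at 11.5 and 9.15 FPKM with doxycycline and 27.0 and 28.6 FPKM in untreated cells, and DNMT3B, a de novo DNA methyltransferase, at 5.01 and 5.58 FPKM with doxycycline and 9.52 and 12.4 FPKM in untreated cells.

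**Figure D5:**
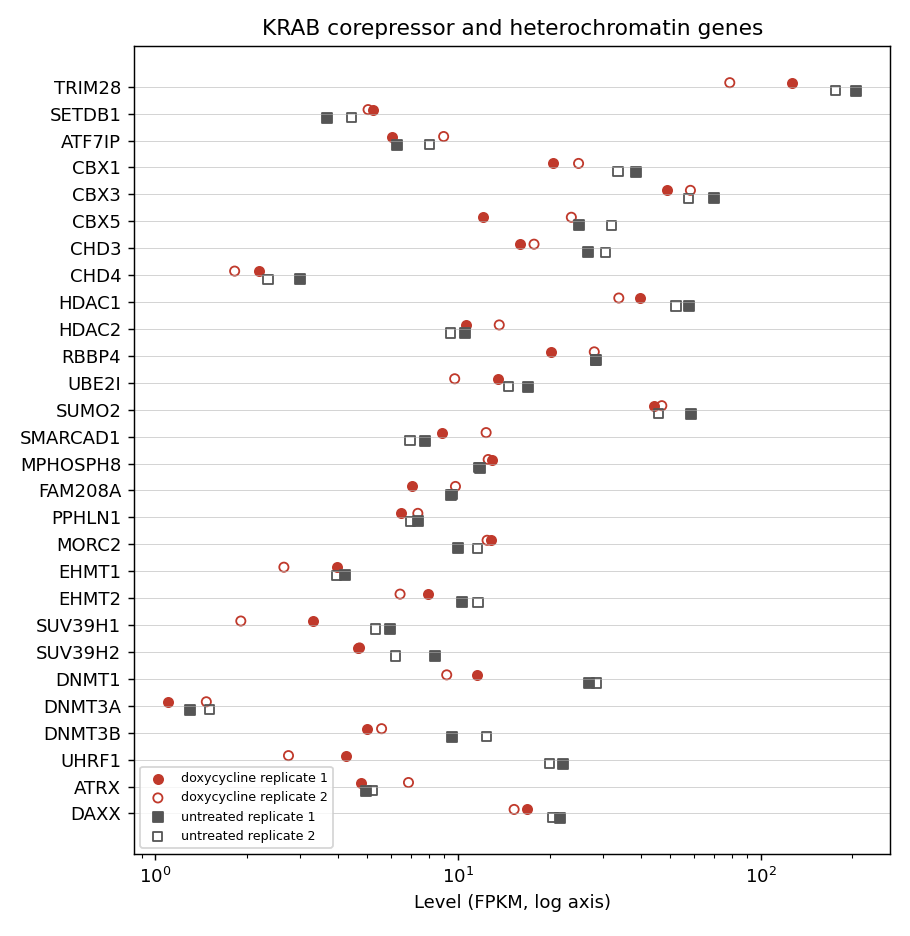
Level (FPKM, log axis) of 28 KRAB corepressor, heterochromatin and DNA methylation genes in each library. Circles mark doxycycline, squares untreated, filled symbols replicate 1 and open symbols replicate 2. The widest gap is in UHRF1, at 4.25 and 2.75 FPKM with doxycycline and 22.2 and 20.03 FPKM in untreated cells, and SETDB1 lies on the other side with doxycycline above.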

How the data were processed

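RNA was sequenced from 769-P cells in 2 groups, doxycycline and untreated, with 2 libraries each, grouped and numbered from the labels. The deposited tables hold FPKM values, 1 table per library, per the file headers. The submitters' processing notes list HISAT2 2.0.5, featureCounts 1.5.0-p3 and limma without saying what each did, and neither genome build nor strandedness is given in the sources used here. Every one of the 58735 genes had the identifier and coordinates of GENCODE release 29, on GRCh38. Once multiplied by gene length, 100.0% of the values were whole multiples of a step that each library had for itself (tolerance 0.02 reads), from which reads and depth were recovered. The library size behind FPKM was 107.5% of the recovered reads in doxycycline replicate 1 and 97.6% in replicate 2. It was 97.2% and 101.0% in untreated replicates 1 and 2.

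Genes that averaged 1 FPKM or more over all 4 were tested with limma-trend (limma 3.58.1, R 4.3.3) on log2(FPKM + 1), two-sided and without covariates (2 residual degrees of freedom), with Benjamini-Hochberg adjustment over the 12029 genes kept and a threshold of 0.05. Differences are doxycycline minus untreated on that scale, on which a change in a gene of low level looks smaller than it is. Ratios are of group means in FPKM. Numbers of genes detected were compared by exact permutation. The steps were tested on simulated data. The reads simulated for the limma step had the same dispersion in every library, whereas the real doxycycline libraries differed more than the untreated ones. Python 3.11.15 with pandas 2.3.3 and numpy 2.4.6 did the rest.

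KRAB patterns and fingers were sought in translated GENCODE coding sequences, where RefSeq proteins had been planned. Promoter windows were read from RefSeq tables on GRCh38.p14. The members and lists were chosen with earlier results of these data known. Genes were named by rule. They were 13 with a known role, the 8 higher and 8 lower with the lowest p, and the 5 with the highest mean. Added were the 5 with the widest gap between doxycycline libraries and 2 on each side of the filter. Of the listed corepressor, heterochromatin and DNA methylation genes, those with an unadjusted p under 0.05 were named, with TRIM28 and SETDB1. Alternatives were other pseudocounts, filters and scalings, limma-voom on recovered reads, a replicate block, corrections for length and GC content, and leaving out each library.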

Additional observations from a re-analysis of the deposited data

How the results depend on the processing

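Each group had 2 libraries, and the lowest read number behind a tested member was 24 in 1 library. Members passing numbered 0 in the full data and under every alternative, except that they ranged from 0 to 15 when 1 library was left out. Members with groups apart numbered 58, with 110 under no filter (48.0% of members, against 39.1% of all genes), 7 at a mean of at least 5 FPKM (53.8%, against 54.7%), and 74 to 102 with 1 library left out (64.3% to 88.7%, against 68.6% to 86.5%), where fewer libraries raise the count by construction. The median difference was 0.004, with -0.23 at a mean of at least 5 FPKM and -0.028 to 0.062 with 1 library left out. The difference in members detected, -1.5, was 1.5 at 0.3 FPKM and 5 at 10 reads, a limit not adjusted for depth. It was 1.5 with library totals free of mitochondrial genes, and -6.5 to 3.5 with 1 library left out. Corepressor genes passing numbered 0, with 2 each at a mean of at least 5 FPKM, among protein-coding genes only, in the voom fit that used median-of-ratios sizes and after the length and GC correction, 4 with a replicate block, and 0 to 10 with 1 library left out. The cause of these shifts was not tested.

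Same-numbered libraries of the 2 groups deviated together only loosely (correlation 0.207 over the 12029 genes tested, 0.291 over the 115 members) and nothing says that a number marks a shared culture. With the replicate block 784 of all genes passed and 0 members did, the median stayed at 0.004 and 58 members were apart.

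Of 438 values for 27 named genes under 17 alternatives, 406 kept direction and side of the threshold, 13 passed it and 19 changed sign, all in members whose difference was small or whose doxycycline libraries parted. Each gene is given here by its lowest and highest difference with 1 library left out, and by any other alternative that turned its sign. ZNF350 ranged from -0.011 (without doxycycline replicate 2) to 0.229, ZNF146 from -0.042 (without doxycycline replicate 2) to 0.402, and ZNF414 from -0.96 to 0.034 (without doxycycline replicate 2). ZNF224 ranged from -0.069 (without untreated replicate 1) to 0.117, and was at -0.074 after the length and GC correction. ZNF175 ranged from -0.112 (without doxycycline replicate 2) to 0.123, with -0.043 without untreated replicate 1 and -0.055 after the length and GC correction. ZNF358 ranged from -0.68 to 0.171 (without doxycycline replicate 2), and was at 0.269 after that correction. ZNF581 ranged from -0.31 to 0.279 (without doxycycline replicate 2), with 0.093 without untreated replicate 1, 0.068 with quantile normalization, 0.020 with median-ratio rescaling, 0.023 with totals free of mitochondrial genes, 0.021 and 0.023 in the voom fits, 0.091 after the length correction and 0.257 after the length and GC correction.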
